A study of Mus musculus with 10 samples.

Results

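Taar2, Taar3, Taar4, Taar5 and Taar6 are 5 of the 14 trace amine-associated receptor (TAAR) genes that mouse olfactory sensory neurons (OSNs) use. They were selected by name from the 24421 rows of the count table, and all 5 passed the filter on low counts. RNA-seq was performed on the whole main olfactory epithelium (MOE), the nasal tissue in which OSNs reside. The mice were 14 days old (P14) and are labelled C57BL/6. The study's methods name C57BL/6J zygotes for the single enhancer knockouts, while its reporting summary describes its mouse lines as of mixed C57BL/6J and 129 origin. The data comprised 3 wild-type (WT) libraries, 3 from mice with both TAAR enhancers deleted on 1 allele (het) and 4 from mice with both deleted on both alleles (homo). The deletions were made with CRISPR-Cas9 and came from 1 established line, so that het and homo mice carry 1 deletion event per enhancer, in all cells of the body. Littermates of the 3 genotypes were compared in the study to ask whether all olfactory Taar genes depend on these enhancers.

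TAARs are G protein-coupled receptors that sense volatile amines. An OSN expresses 1 receptor gene, from the TAAR or the odorant receptor (OR) family, and from 1 allele only. Enhancers in receptor gene clusters act on several receptor genes at once. TAAR3 responds to primary amines, TAAR4 to 2-phenylethylamine, which is abundant in carnivore urine, and TAAR5 to trimethylamine.

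The 5 genes are neighbours on chromosome 10 (mm10, GENCODE release 21, 1-based). Taar2 lies at chr10:23938572-23941583 on the + strand and has 2 exons, whereas the other 13 olfactory Taar genes have 1. Taar3 (chr10:23949558-23950589), Taar4 (chr10:23960494-23961537) and Taar5 (chr10:23970706-23971719) follow on the same strand. Taar6 (chr10:23984609-23985646) is on the - strand. Together they span 47075 bp of the 189179 bp between the outer ends of Taar1 and Taar9. The 17102 bp that separate Taar1 from Taar2 hold TAAR enhancer 1. The other deleted element, TAAR enhancer 2, is in the 6758 bp that separate Taar6 from Taar7a, so that the 5 genes are flanked by the deletions. No other annotated gene overlaps any of them.

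Whether reads can be told apart between these genes depends on the length of sequence they share with other genes. Over the coding transcripts, the 10 pairs among the 5 genes were from 51.3% (Taar2 and Taar6) to 64.7% (Taar2 and Taar3) identical. In contrast, the 10 pairs of Taar7 genes, which are recent copies, were from 91.7% to 95.4% identical. The longest run of bases shared exactly with any other annotated transcript was 20 in Taar2, 18 in Taar3, 22 in Taar4 and 19 in Taar5. In Taar6 it was 50, shared with Taar8a, to which 10 reads were assigned over the 3 WT libraries and 0 in homo libraries. The runs that Taar4 and Taar6 share with Taar8a are shown in capitals, with 10 bases on each side, because reads that fall within them cannot be assigned by sequence alone. The capitals lie at chr10:23960858-23960879 in Taar4 and, read on the - strand, at chr10:23985213-23985262 in Taar6 (mm10).
Taar4: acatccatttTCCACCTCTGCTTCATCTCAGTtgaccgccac
Taar6: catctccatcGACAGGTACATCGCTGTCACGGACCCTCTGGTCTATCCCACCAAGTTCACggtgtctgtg
For the Taar7 and Taar8 genes the longest shared runs were from 168 to 326 bases, so that counts of those 8 genes are uncertain one by one.

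Depth was alike in the 3 genotypes, with total counts from 21423861 to 27712948 per library. Markers of MOE cells were found in all libraries, as were those of bone. The 8 mature OSN markers summed to 8879 to 9801 CPM (counts scaled to the library total) in WT, 8679 to 10044 in het and 8275 to 9678 in homo libraries. The study places most olfactory Taar genes in the dorsal MOE, but Taar6 in its dorsal and ventral parts. The 2 markers of the dorsal MOE (Nqo1 and Acsm4) summed to 587 to 750 CPM in WT and 640 to 780 CPM in homo libraries. No gene of these lists, nor of the lists for immature OSNs, basal cells, supporting cells, the ventral MOE, bone and blood, passed the test between homo and WT or between het and WT. The 3 bone markers (Bglap, Col1a1 and Ibsp) summed to 2279 to 4476 CPM in WT libraries. They summed to 1754 to 3393 CPM in het and to 2976 to 3859 CPM in homo libraries. Of the 3 blood markers, Hba-a1 and Hbb-bs had no reads, but Ptprc was found in all libraries. Ptprc had 8.86 to 17.6 CPM in WT, 9.08 to 10.6 CPM in het and 8.72 to 14.2 CPM in homo libraries. The vomeronasal marker Trpc2 had at most 0.0439 CPM.

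In WT mice the order of the 5 genes by RPKM (reads scaled to exon length and library total, from the counts and the annotated exon lengths) was Taar6, Taar2, Taar5, Taar4 and Taar3. Taar6 had an RPKM of 4.64 ± 0.208 (SD, n = 3), Taar2 of 2.89 ± 0.347 and Taar5 of 2.23 ± 1.10. Taar4 had an RPKM of 1.96 ± 0.173 and Taar3 of 0.988 ± 0.319. Taar6 was the highest and Taar3 the lowest of the 5 in each of the 6 WT and het libraries. The ranges of Taar2 and Taar5 overlapped over the WT libraries, as did those of Taar5 and Taar4, so that these neighbours in the order did not differ beyond their spread. In het mice Taar4 (2.31 ± 0.974, n = 3) came before Taar2 (2.05 ± 1.01) and Taar5 (1.69 ± 0.243), and these 3 overlapped. Set among the 1113 OR genes with an annotated length, whose median RPKM in WT was 0.847, Taar6 was above 96.8% of them, Taar2 above 90.0%, Taar5 above 84.9%, Taar4 above 81.4% and Taar3 above 57.1%. The annotated models of the 5 genes hold coding sequence only, as do 67 of the 1113 OR models, so that RPKM of Taar and most OR genes cover unequal parts of the transcripts. Among those 67 OR models alone, Taar3 was above 92.5%, Taar4 above 98.5% and Taar2, Taar5 and Taar6 above all of them. Those 67 were low among OR genes, with a median RPKM of 0.277 in WT and a maximum of 2.11. The maximum of all 1113 was 27.2, so that a rank among the 67 is not a rank in the OR family.

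In homo mice each of the 5 receptors was close to 0. In bulk tissue, fewer neurons that express a receptor and less of its RNA per neuron cannot be told apart. The study also counted positive cells by in situ hybridization and reported 0 in homo mice for each of the 5 genes. Taar2, the nearest of the 5 genes to TAAR enhancer 1, had 80, 66 and 76 reads in the WT libraries, 50, 73 and 25 in the het libraries and 0, 3, 0 and 0 in the homo libraries. Every homo library was below every WT and het library, and all reads left came from homo-2. Pooled over libraries and corrected for depth, homo mice kept 1.07% of the WT level (exact 95% counting interval 0.219% to 3.17%).

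Taar3 had 25, 19 and 32 reads in WT, 13, 23 and 16 in het and 1, 0, 0 and 0 in homo libraries. The single read left was in homo-1, and the homo libraries did not overlap with the others. Taar3 had the fewest reads of the 5 genes in WT mice, and the level left was 1.04% of WT (0.0260% to 5.98%).

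Taar5 had 52, 34 and 81 reads in WT, 42, 34 and 46 in het and 1, 0, 0 and 0 in homo libraries. Its single homo read was also in homo-1, and the level left was 0.474% of WT (0.0119% to 2.68%). Taar6, the nearest of the 5 genes to TAAR enhancer 2, had 135, 118 and 111 reads in WT, 86, 97 and 115 in het and 0, 0, 0 and 1 in homo libraries. The level left was the lowest of the 5, at 0.217% of WT (0.00549% to 1.22%), and the read came from homo-4. Taar3, Taar5 and Taar6 each had 1 homo read, so that the order of their levels only follows their WT reads. Their intervals overlap.

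Taar4 alone of the 5 had reads in more than 1 homo library. It had 50, 57 and 47 reads in WT, 58, 80 and 33 in het and 0, 2, 3 and 4 in homo libraries. The homo libraries were again all below the others, but 3 of the 4 held reads, and 4.63% of the WT level was left (2.08% to 9.01%). The other 4 genes summed to 6 reads in homo against 829 in WT libraries, or 0.573% of WT (0.210% to 1.25%), an interval that does not overlap with that of Taar4. Taar4 was singled out after its values were seen, its intervals cover counting error only, and the difference between the genes was not tested.

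**Figure D1:**
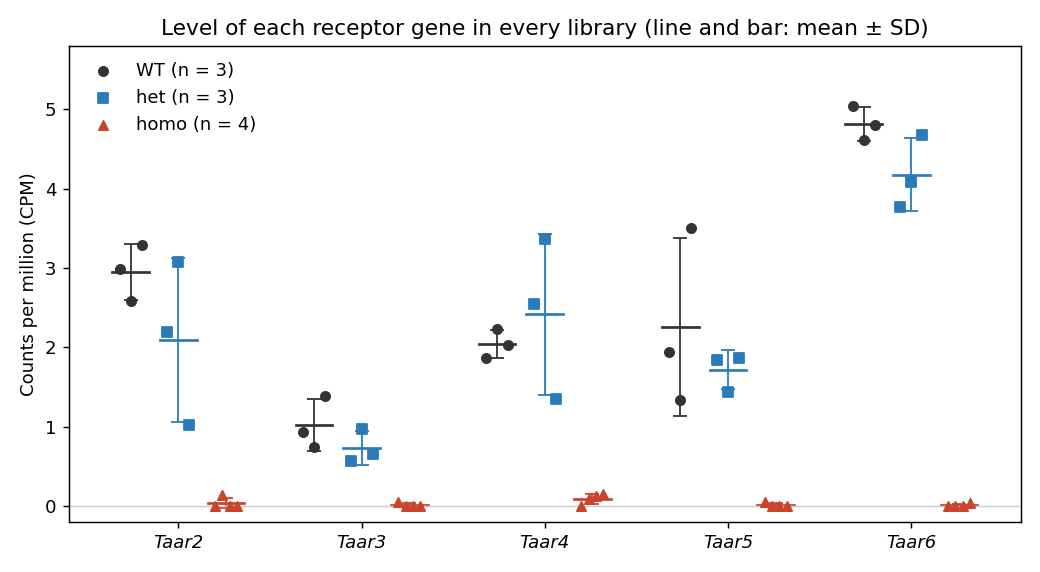
Level of each of the 5 receptor genes in CPM (vertical axis) in every library, with 1 point per library and the mean ± SD beside the points for WT (circles, n = 3), het (squares, n = 3) and homo (triangles, n = 4). All homo points lie at or near 0, from 0 to 0.144 CPM, below every WT and het point of the same gene, whereas the WT and het points of each gene overlap.

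Against WT, edgeR called all 5 genes lower in homo mice, as it did 0.0698% of the 17197 genes tested. The log2 fold change was -8.27 (SE 1.19, adjusted p 1.68e-08) for Taar6 and -7.16 (SE 1.56, adjusted p 1.52e-05) for Taar5. It was -6.33 (SE 1.08, adjusted p 4.52e-05) for Taar2, -6.02 (SE 1.51, adjusted p 0.00046) for Taar3 and -4.37 (SE 0.61, adjusted p 0.000182) for Taar4. Because 1 to 9 reads were left over all homo libraries, the fitted folds of the first 4 depend on the prior count, and the percentages above are the better measure of size. Without the 1 homo library that held their reads, the log2 fold change was -9.17 for Taar2 (without homo-2), -7.65 for Taar3 and -8.79 for Taar5 (both without homo-1) and -9.84 for Taar6 (without homo-4). For Taar4 it ranged from -4.68 to -4.02 with each library left out, and all 5 genes stayed under an adjusted p of 0.05 in each of these fits. All 5 genes had no overlap between homo and WT libraries, which held for 1.85% of all genes tested in the lower direction.

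Against het mice all 5 genes were lower in homo mice as well, where 0.0698% of the genes tested were lower, with edgeR adjusted p from 3.23e-08 (Taar6) to 0.00245 (Taar3). Both comparisons use the same homo libraries. The levels left were 3.93% of het for Taar4 and 0.250% of het for Taar6. None of the 5 genes overlapped between homo and het libraries, as was the case for 1.89% of all genes tested in the lower direction. The 7 other olfactory Taar genes that were tested were lower in both comparisons too, so that the calls do not set Taar2 to Taar6 apart from the rest of the family.

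All the Taar reads left in the homo libraries were in Taar2 to Taar6. The 14 olfactory Taar genes together had 2, 5, 3 and 5 reads in the 4 homo libraries, and all 15 fell in the 5 genes (exact 95% lower bound of the share 78.2%). In WT libraries the 5 genes held 36.9 ± 4.11% (SD, n = 3) of the Taar reads and in het libraries 33.4 ± 2.34% (n = 3). The other 9 genes, which held most Taar reads in WT mice, had 1683 reads in WT and 0 in homo libraries, where a count of 0 allows up to 0.141% of the WT level (3 counts over the 4 libraries). The 5 genes together kept 1.21% of the WT level (0.673% to 2.002%), with 2 to 5 reads in each homo library. The interval and the limit do not overlap. They cover counting error only, and the difference was not tested. Of the 15 reads, 9 were Taar4, a share of 60% (exact 95% interval 32.3% to 83.7%), against 5.77 ± 0.480% of the Taar reads in WT. Over libraries the Taar4 share was 0%, 40%, 100% and 80% in homo mice, so that homo-1 was below and the other 3 were above all WT libraries (exact two-sided permutation p = 0.229, where the smallest possible is 0.0571).

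**Figure D2:**
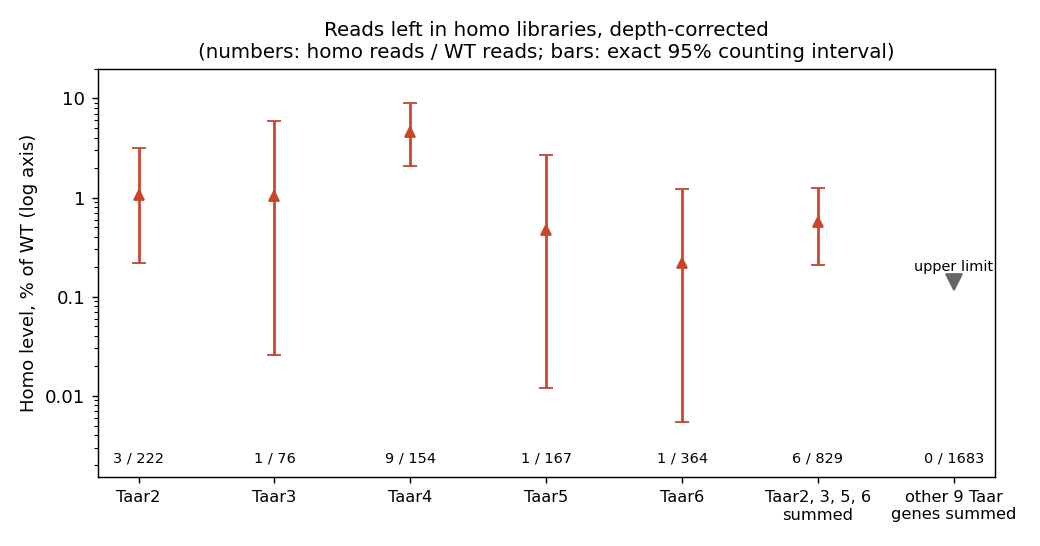
Level left in homo mice in percent of WT, on a log axis, for each gene, for Taar2, Taar3, Taar5 and Taar6 summed and for the other 9 olfactory Taar genes summed, with exact 95% counting intervals as bars and the homo and WT reads printed at the bottom. Taar4 stands at 4.63%, and the other 9 genes have no homo read, with an upper limit of 0.141% (downward triangle).

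The loss was not shared by OR genes with enough WT reads to compare, with no upper limit set on their reads. Of the 886 OR genes with at least as many WT reads as Taar3 (76), the lowest level in homo mice was 45.2% of WT, the median was 97.8%, and 0 were under 10%. Of 14 olfactory transduction and receptor transport genes and 15 regulators of receptor choice (such as Lhx2, Ldb1 and Ebf1) that were tested, 0 passed the test between homo and WT or between het and WT. Their median log2 fold changes between homo and WT were -0.03 and -0.02, where that of all genes tested was 0.00012. Scaled to mature OSN marker reads, the 5 genes had 1295 to 1549 reads for every 1000000 marker reads in WT, 951 to 1488 in het and 10.1 to 26.7 in homo libraries.

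In het mice no receptor passed the test against WT. edgeR called 0 of the 5 genes and 0% of all genes tested, and 0 of the 5 had an unadjusted p under 0.05. Of the 5 fitted differences, 4 were below WT and 1, that of Taar4, was above it. None of the 5 genes separated the het from the WT libraries without overlap, while 5.22% of all genes tested did in either direction. Taar6 was at 86.6% of WT (95% interval 62.5% to 120%) and Taar5 at 76.3% (44.3% to 131%). Taar3 was at 72.0% (38.2% to 136%) and Taar2 at 71.0% (39.4% to 128%), while Taar4 was at 118% (69.6% to 201%). The intervals of all 5 include the WT level, and those of Taar2, Taar3 and Taar5 also include 50%. A level of 50% is that of 1 allele only if the intact allele does not make up for the other.

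Tested against 50% of WT, Taar4 (edgeR adjusted p 0.0041) and Taar6 (adjusted p 0.0031) were above it. For Taar2 (adjusted p 0.234), Taar3 (0.251) and Taar5 (0.126) the test did not separate the het level from 50% of WT. These 2 of 5 genes compare with 92.6% of all genes tested that were above 50% of WT. Taar5 also passed with the replicate number as a block in WT and het alone (adjusted p 0.0445), but not with the block in all 3 genotypes (adjusted p 0.0724). It passed without WT-3 (adjusted p 0.0208), and Taar2 passed without het-3 (adjusted p 0.0498). All 7 other Taar genes tested were above 50% of WT. Summed, the 5 genes were at 85.0% of WT in het mice.

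**Figure D3:**
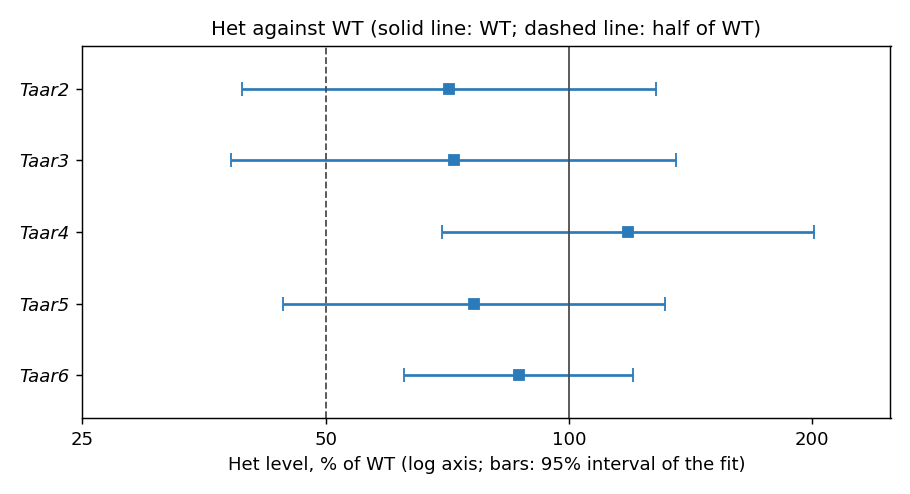
Het level of each gene in percent of WT (horizontal log axis) with the 95% interval of the edgeR fit, a solid line at WT and a dashed line at 50% of WT. Only the intervals of Taar4, from 69.6%, and Taar6, from 62.5%, lie wholly above the dashed line, and all 5 cross the solid line.

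The spread between libraries of 1 genotype differed between the genes, and for the same gene between genotypes. With so few libraries, a spread is not shown to be a property of a gene. Taar6 had the least spread in WT, with a coefficient of variation of CPM of 4.49%, where counting alone gives 9.08%. Taar5 varied by 49.6% in WT (13.4% from counting alone), with 1.33 CPM in WT-2 and 3.50 CPM in WT-3. In het libraries Taar5 varied by 14.4% (15.7% from counting alone). Among het libraries Taar2 varied by 49.2% (14.2% from counting alone) and Taar4 by 42.1% (13.2% from counting alone). Both were lowest in het-3, at 1.02 CPM for Taar2 and 1.34 CPM for Taar4, and highest in het-2, at 3.07 and 3.36 CPM. In het-3 Taar6, at 4.68 CPM, and Taar5, at 1.87 CPM, were instead the highest of the het libraries. Pearson's r of pairs of the 5 genes over the 6 WT and het libraries ranged from -0.66 (Taar4 and Taar6) to 0.67 (Taar2 and Taar4), which with so few libraries describes them only.

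As shares of the olfactory Taar reads, none of the 5 genes differed between WT and het mice by more than the spread. Taar6 took 13.6 ± 0.968% (SD, n = 3) in WT and 12.7 ± 2.14% in het (exact two-sided permutation p = 0.6). Taar2 took 8.34 ± 0.881% in WT and 6.18 ± 2.64% in het (exact p = 0.2), with 3.29% in het-3 (Wilson 95% interval 2.24% to 4.82%). Taar5 took 6.33 ± 2.93% and 5.23 ± 1.13% (exact p = 0.9). Taar4 was the 1 gene with a higher mean share in het, 7.16 ± 2.54% against 5.77 ± 0.480% (exact p = 0.4). Taar3 took 2.87 ± 0.836% and 2.18 ± 0.458% (exact p = 0.2). The WT and het ranges overlapped for all 5 genes, and 3 libraries against 3 cannot give a p under 0.1 in any of these 5 tests, which are not adjusted.

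**Figure D4:**
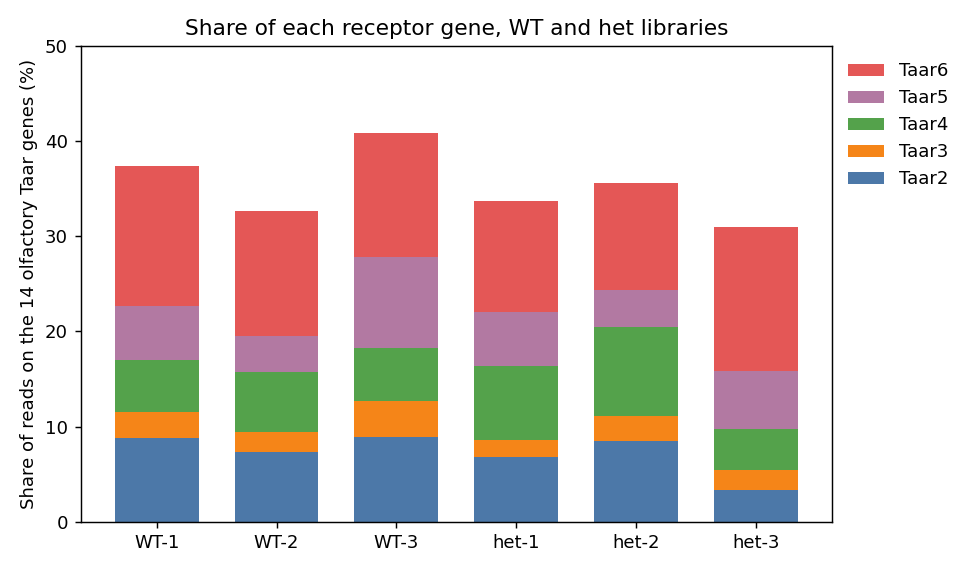
Share of each of the 5 genes in the reads of the 14 olfactory Taar genes, in percent, stacked for the 3 WT and 3 het libraries. The 5 genes together hold from 31.0% (het-3) to 40.8% (WT-3), with Taar6 the largest and Taar3 the smallest part in each library.

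The genes whose pattern over the 10 libraries was most like that of the 5 summed (Pearson's r of log2 of CPM plus 0.1) were the 7 other tested Taar genes, with r from 0.990 to 0.997. The next were Stard6 (r = 0.949), Tmprss11e (0.890), Cadm1 (0.889), Olfr1215 (0.874) and Wrb (0.873). These points include the 4 homo libraries, where the Taar genes were at or near 0. Between homo and WT, edgeR called no gene outside the Taar family. Over the 6 WT and het libraries the other Taar genes had r from -0.34 to 0.69 and ranks from 458 to 14148 among the genes tested. The highest were Chrnb3 (0.994), Pvrl4 (0.980), Gm16701 (0.973), Doc2a (0.973) and Rph3al (0.971). They are the top of 17197 genes over only 6 libraries, so that these r describe the data only and were not tested.

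The windows of 250 bases before to 50 after the annotated start, which is the start codon here, were searched for 3 motifs on both strands (RefSeq, GRCm38.p6, 4 of the 5 genes matched; Taar4 did not). TAATTA, the core of many homeodomain sites, occurred in 0 of the 4 windows and in 5.29% of all windows, and CCCNNGGG, the core of the EBF site, in 0 of 4 and in 13.7%. With only 4 windows, placed around the start codon, these counts cannot show whether the genes lack such sites. The study found Lhx2 motifs and a composite Lhx2/Ebf motif in each enhancer, outside these windows. TATAAA occurred once each in Taar2 and Taar5 and in 13.6% of all windows. Both matches are shown in capitals with 12 bases on each side, because only the first lies clear of the coding start. In Taar2 (chr10:23938462-23938491) it begins 98 bases before the start codon, and in Taar5 (chr10:23970689-23970718) 5 bases before it, so that its last base is the A of the start codon.
Taar2: caattgttaaatTATAAAgcagcacagtta
Taar5: aagaacagaaccTATAAAtgagagctgtcc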

How the data were processed

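Libraries of poly(A)-selected MOE RNA were strand-specific. The authors trimmed the reads (Trimmomatic 0.36), aligned them to mm10 with HISAT2 2.1.0 and counted them per gene with featureCounts (Subread 1.6.2), and the deposited raw counts were analysed here. The annotation, strand setting and handling of multiply aligned reads are not given in the sources used here. The deposited normalized table holds the same counts divided by 1 factor per library and was not used.

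The test was the quasi-likelihood F test of edgeR 4.0.16 (R 4.3.3), two-sided, in a robust fit of genotype to all 10 libraries, scaled by TMM. The filter was filterByExpr by genotype, with a minimum count of 10 and a minimum total of 15. Adjustment was by Benjamini-Hochberg over 17197 genes, with a threshold of 0.05. The common biological coefficient of variation was 13.9%. For the test against 50% of WT, log(0.5) was added to the offset of the het libraries. CPM used library totals. Shares were compared by exact permutation of libraries, ratios of pooled reads have exact 95% binomial intervals, and single shares Wilson or exact ones. A count of 0 was taken to allow up to 3 counts. These intervals and floors cover counting error only. The study counts 3 WT, 3 het and 4 homo littermates, as many as there are libraries. The labels do not tie each library to a mouse, and p-values measure the spread between these libraries. Libraries of 1 genotype all differed by more than sampling noise (chi-square divided by its degrees of freedom, 13.9 to 47.0).

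WT and het libraries of the same number deviated together (r = 0.326, 0.285 and 0.235), which pairs them by the rule used here (every pair over 0.1), while WT and homo libraries did not (r from -0.0995 to -0.0122). The block was tried as an alternative, as were DESeq2 1.42.0, RLE factors, library totals, TMM without Taar genes, scaling to mature OSN markers, other filters, no robust estimation, fits of 2 genotypes and leaving out each library. The 5 genes were given by name, and the genes most like their sum were the 5 with the highest r outside the family. The genes, lists and tests were chosen with earlier results of these data known.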

Additional observations from a re-analysis of the deposited data

Results flagged for a closer look

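In 7 sets of 4 homo libraries that were checked for a library far from the others, 4 had one by Dixon's criterion at the 95% level, which chance gives in about 1 in 20 sets of continuous values. Each is a gene with reads in a single homo library and 0 in the other 3. The gap is then the whole range, so that any such set of counts meets the criterion and that rate does not apply. Taar2 was at 0.133 CPM in homo-2 (3 reads), Taar3 and Taar5 were each at 0.0467 CPM in homo-1 (1 read each), and Taar6 was at 0.0361 CPM in homo-4 (1 read). For Taar3, Taar5 and Taar6 a count of 1 in 1 of 4 libraries is the smallest value other than 0 that a count can take. Taar4, with reads in 3 of 4 homo libraries, had no library far from the others.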

How the results depend on the processing

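The number of the 5 genes called lower in homo mice was 5 against WT and 5 against het under every setting tried, apart from a stricter filter (mean CPM no lower than 1) that took Taar3 out of the test and left 4. Leaving out each library gave 5 to 5 in both. Between het and WT 0 of the 5 genes were called in all alternatives (0 to 0 when each library was left out). These include both fits with the replicate number as a block. Over all 16877 genes tested, the block in WT and het alone called 2 genes lower and 1 higher in het. Above 50% of WT, 2 of the 5 genes were called in most alternatives and 2 to 3 when each library was left out. With the replicate block in WT and het alone 3 were called, the third being Taar5 (log2 difference 0.67 from 50% of WT, adjusted p 0.0445), which with the block in all 3 genotypes had an adjusted p of 0.0724 (2 called). The block changed no other call of the 5 genes. Of 406 refitted log2 fold changes, 2 turned in direction, both between het and WT and neither called. With each library left out, Taar4 ranged from -0.077 (without het-2) to 0.54, and Taar5 from -0.66 to 0.056 (without WT-3). The het minus WT difference in the Taar5 share also turned without WT-3, from a lowest value of -2.37 to 0.504 percentage points. Summed, the 5 genes were at 1.02% to 1.35% of WT in homo and 78.2% to 91.7% in het mice when each library was left out, and at 1.27% and 88.3% when scaled to mature OSN markers. Their share of the Taar reads was 35.0% to 39.1% in WT and 32.4% to 34.7% in het mice with each library left out. Without the Taar7 and Taar8 genes in the denominator, which leaves Taar9 as the only other gene, it was 83.9% in WT and 79.2% in het mice. With 1 to 9 reads left per gene in all homo libraries, depth limits any ranking of the 5 genes by the level left.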
